A study of Mus musculus with 9 samples.

Results

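The genes described here are those with their highest levels in conventional type 1 dendritic cells (cDC1) of healthy nodes. They were chosen from gene counts expressed as CPM (each gene's count scaled to the library total). A protein-coding gene was taken when its mean over the 9 libraries was at least 8 CPM, its lowest Healthy library lay above the highest of the 6 PanIN and Tumor libraries, and its Healthy mean was at least 1.5 times the mean of those 6. Fasn, Aldoc, Ccr2 and ribosomal protein genes were left out. Of 53458 genes, 9693 were eligible, and 67 met the rule (0.691% of those eligible). Because the rule used the difference between Healthy and the other libraries, that difference is described below and not tested.

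RNA was sequenced from mouse cDC1 of the lymph nodes next to the pancreas, in 3 libraries of each of 3 neoplasia stages, Healthy, PanIN and Tumor. PanIN is pancreatic intraepithelial neoplasia, the precursor lesion of pancreatic cancer, and the design text says that PanIN and Tumor nodes drained those lesions. The title of the series refers to KPC mice, a genetic model of pancreatic cancer driven by Cre in pancreatic cells. The labels give no allele, age, sex or treatment, do not say whether Healthy mice carried any KPC allele, and do not say whether a library is 1 animal or a pool. The p-values below therefore reflect how far these libraries vary, and that variation may be technical. In bulk RNA, fewer cells of a type and less RNA per cell cannot be told apart.

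cDC1 take up dying cells and present their antigens to CD8+ T cells. They come to a node either as cells that live there or as mature cells that arrive from the drained tissue. Roles among the 67 genes, which were grouped by hand from what each is known to do, such as pyruvate dehydrogenase control, cyclic AMP and calcium signalling and protein ubiquitination are used by many cell types and define no dendritic cell subset.

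Libraries held 32140409 to 68908534 estimated counts, and every pair of libraries differed by more than sampling noise. Summed over 20 genes of cDC1 identity, the level was 10100, 19400 and 8500 CPM in Healthy 1 to 3, 9850, 13000 and 17300 in PanIN, and 7870, 13400 and 11600 in Tumor. Over 34 genes of dendritic cell maturation it was 17500, 2710 and 10300 CPM in Healthy, 9090 to 19500 in PanIN, with 15100 to 24400 in Tumor. Healthy 2 thus had the lowest maturation sum and the highest identity sum of the 9. None of the 67 genes belongs to either list.

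The difference that defined the 67 genes was mostly moderate. The ratio of the Healthy mean to the mean of the 6 ran from 1.5 to 5.75 with a median of 1.77, and 17 genes reached 2 or more. Over the eligible genes the median of the same ratio was 0.997. The Healthy and other libraries lay close together at their edges: the ratio of the lowest Healthy library to the highest of the 6 had a median of 1.11, was under 1.1 in 28 genes and was 1.58 at most. In the opposite direction, 221 eligible genes (2.28%) had Healthy lowest by the mirror of the rule. Non-overlap alone, with no demand on the ratio, was met by 183 eligible genes with Healthy highest (1.89%) and by 445 with Healthy lowest (4.59%).

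The library that was highest among the 6 was PanIN 1, 2 or 3 for 19, 23 and 20 genes, and a Tumor library for the other 5. Healthy means were a median 1.58 times the PanIN mean. Against Tumor the median was 2.0 times, over 66 genes with a value. These comparisons share the Healthy libraries. In the same contrasts, which the rule used and from which nothing is read, edgeR called 0 of the 67 in PanIN against Healthy (0.0% of 24133 genes) and 0 in Tumor against Healthy (0.0249%) at an adjusted p under 0.05, and 50 and 60 had an unadjusted p under 0.05. DESeq2 called 1 (0.812%) and 42 (6.66%). In the heat map by role, Healthy 3 is the reddest column in most role groups.

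**Figure D1:**
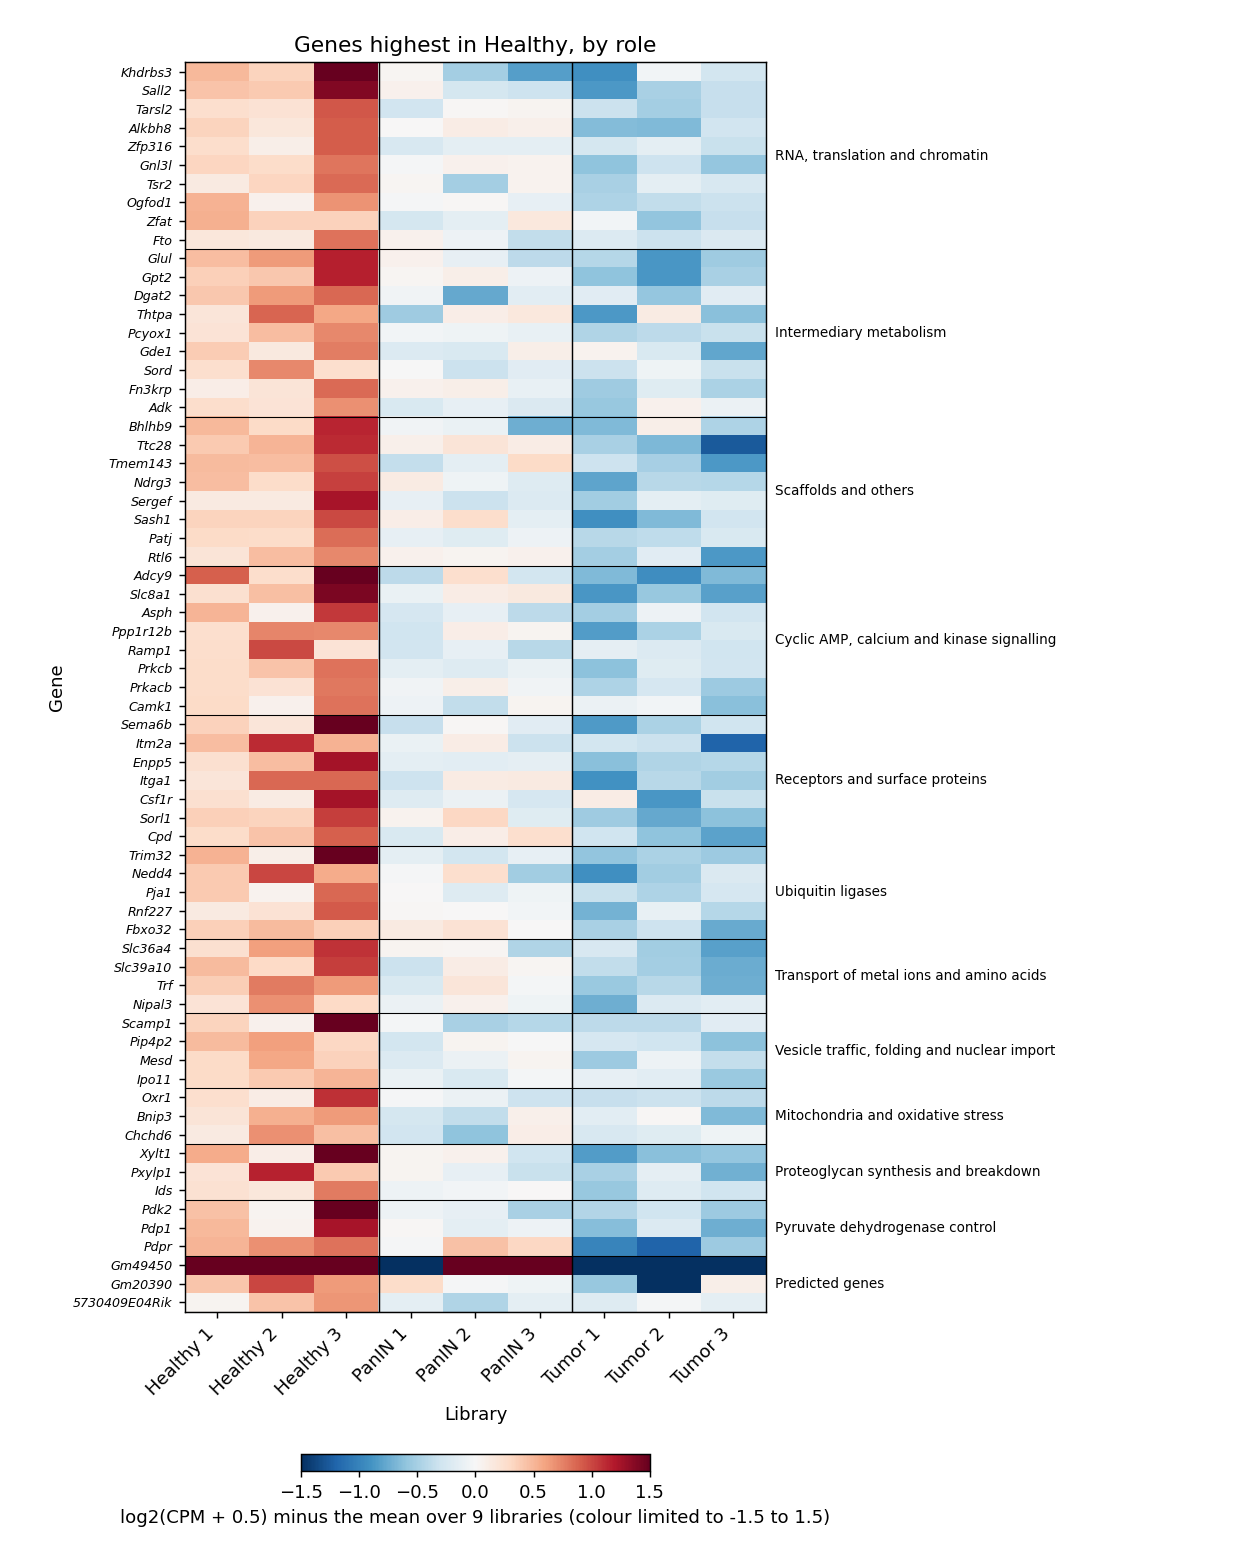
Heat map of the 67 genes (rows, grouped by role) in the 9 libraries (columns); colour is log2(CPM + 0.5) minus the gene's mean over the 9 libraries. All 3 Healthy columns are the highest for each gene by the rule, Healthy 3 is the highest of them for 50 genes, and the Tumor columns are mostly the lowest.

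Among genes of intermediary metabolism, Glul, the glutamine synthetase, had one of the widest separations. Glul stood at 223, 252 and 362 CPM in Healthy 1 to 3, at 169, 148 and 123 CPM in PanIN 1 to 3, and at 120, 88 and 111 CPM in Tumor 1 to 3. Its Healthy mean was 279 ± 73.3 CPM (SD, n = 3) against 127 ± 28.4 over the 6 (SD, n = 6), a ratio of 2.2, and the lowest Healthy library was 1.32 times the highest of the 6. Healthy 3 was the highest library, PanIN 1 was the nearest from below, and by CPM the Tumor libraries all lay below the PanIN libraries. With TMM factors, which rescale each library, PanIN and Tumor overlapped. The gene lies on chromosome 1 at 153899944 to 153909723, plus strand, on GRCm38.

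Gpt2, the mitochondrial alanine aminotransferase, had 15.5, 16 and 27.6 CPM in Healthy, 12.2, 12.8 and 11.3 in PanIN, with 7.7, 6.34 and 8.42 in Tumor. Healthy 1 and 2 were close to each other, with Healthy 3 well above them, and each Tumor library lay below each PanIN library. Glul and Gpt2 were 2 of the 26 genes in a list of amino acid metabolism. Of the others on that list, Slc38a1, a glutamine carrier named here after its values were seen, also had Healthy above all 6, but with a ratio of 1.34. The list's sum overlapped between the groups, at 2300 to 2480 CPM in Healthy and 2220 to 2340 CPM in the 6.

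Dgat2, which makes triglyceride from diacylglycerol, had 10.1, 12 and 14.1 CPM in Healthy, 7.26, 4.2 and 6.7 in PanIN, with 6.64, 4.89 and 6.61 in Tumor. Its lowest Healthy library was 1.4 times the highest of the 6, the widest such gap among the genes with an established name. PanIN and Tumor overlapped fully and had the same mean of 6.05 CPM. Of 10 genes of triglyceride synthesis and storage, a list added after seeing the data like the other family lists below, Dgat2 was the only one with Healthy above all 6. The enzyme Dgat1, which carries out the same reaction, had a ratio of 0.79, and the lipid droplet coat protein Plin2 had 1.13.

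The other 6 metabolic genes had ratios of 1.51 to 1.77. They were Thtpa (thiamine triphosphatase), Pcyox1 (prenylcysteine oxidase), Gde1 (a glycerophosphodiester phosphodiesterase), Sord (sorbitol dehydrogenase), Fn3krp (a kinase that removes sugar adducts from protein) and Adk (adenosine kinase). In Thtpa and Sord the highest library was Healthy 2, at 19.9 and 19.6 CPM. In the other 4 it was Healthy 3.

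The 67 included 3 regulators of the pyruvate dehydrogenase complex, the gate from glycolysis to the citric acid cycle. Pdk2, a kinase that switches the complex off, had 15, 11.3 and 31.7 CPM in Healthy, 10.4, 9.98 and 7.67 in PanIN, with 7.92, 8.82 and 7.35 in Tumor. Pdp1, the phosphatase subunit that switches it back on, had 18.9, 13.9 and 32 CPM in Healthy, 13.5, 12 and 12.6 in PanIN, with 8.38, 11.5 and 7.85 in Tumor. In both genes Healthy 3 stood far above the rest and Healthy 2 only just above the highest of the 6.

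Pdpr, the regulatory subunit of that phosphatase, was different in shape. It had 24.0, 27.3 and 29.9 CPM in Healthy, 16.6, 22.9 and 20.9 in PanIN, with 8.16, 7.0 and 11.3 in Tumor. The Healthy libraries lay close together, at 27.1 ± 2.98 CPM (SD, n = 3), and PanIN was nearer to Healthy than to Tumor. Of 14 genes of the complex, its regulators and its pyruvate carrier, 10 had a ratio above 1, the 3 chosen regulators among them. The median ratio of eligible genes was 0.997, which is also the background for such counts in the families below. Besides the 3 regulators, Dlat, a catalytic subunit named after its values were seen, had Healthy above all 6, with a ratio of 1.32. The kinase Pdk3 had 0.916, the second phosphatase Pdp2 had 0.799, and the carriers Mpc1 and Mpc2 had 1.05 and 1.01.

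**Figure D2:**
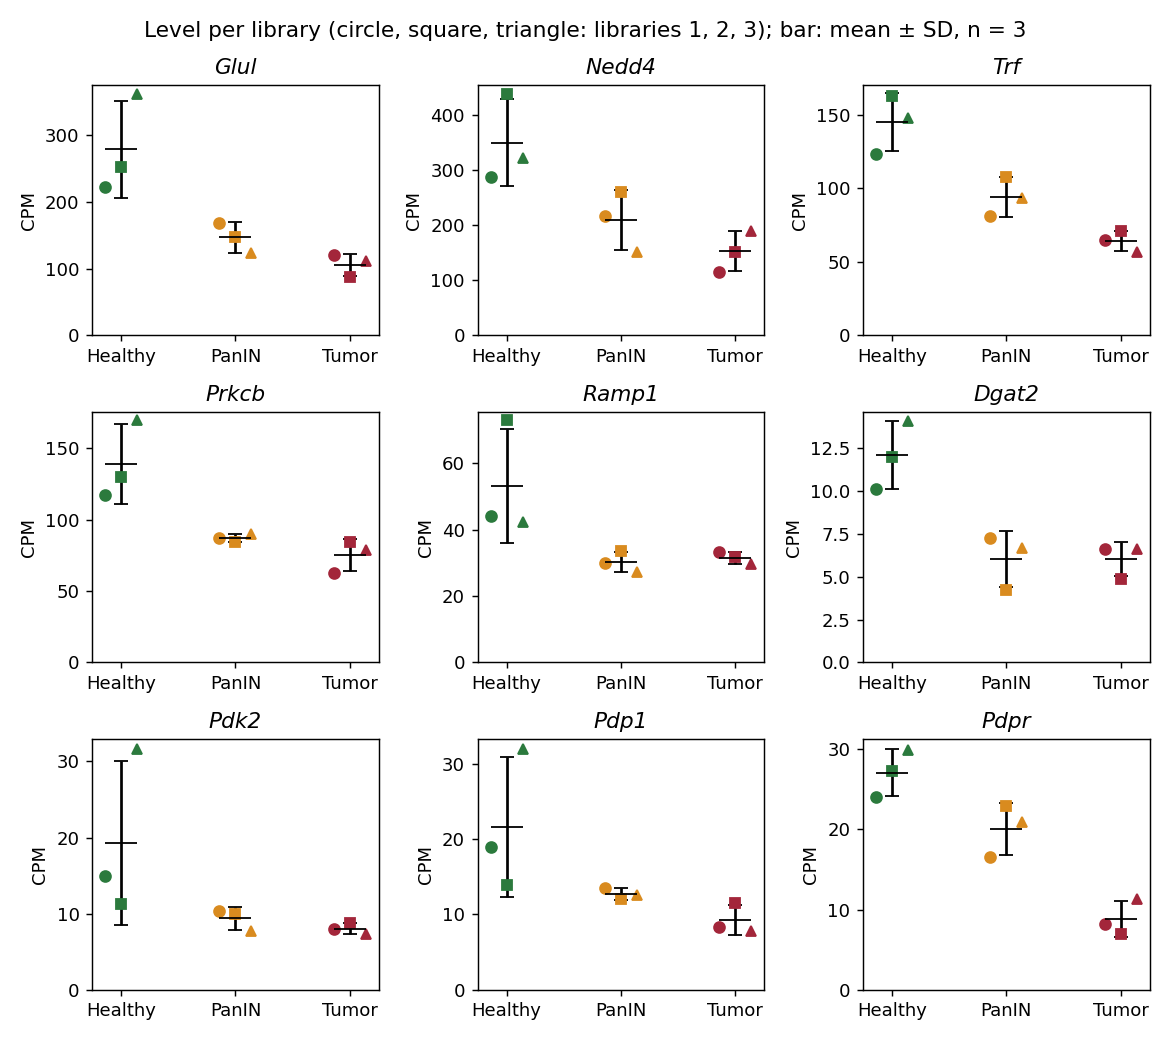
CPM of 9 of the genes (vertical axes, from 0) in Healthy, PanIN and Tumor; each point is a library (circle, square and triangle for libraries 1, 2 and 3) and the bar is the mean ± SD of 3 libraries. Pdk2 and Pdp1 reach 31.7 and 32 CPM in Healthy 3, Nedd4, Trf and Ramp1 peak in Healthy 2, and Pdpr has its Tumor libraries well below its PanIN libraries.

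Promoter sequences are printed for the 2 pyruvate dehydrogenase regulators that had an entry, both highest in Healthy 3, and for Glul and Nedd4, which peaked in different Healthy libraries. They are the 250 bases before the RefSeq start on GRCm38.p6, 5′ to 3′ on the gene's strand, for Pdk2 at chr11:95041372-95041621 (minus), Pdpr at chr8:111094495-111094744 (plus), Glul at chr1:153899679-153899928 (plus) and Nedd4 at chr9:72662081-72662330 (plus). Capitals mark matches to any of 12 short motifs.
Pdk2: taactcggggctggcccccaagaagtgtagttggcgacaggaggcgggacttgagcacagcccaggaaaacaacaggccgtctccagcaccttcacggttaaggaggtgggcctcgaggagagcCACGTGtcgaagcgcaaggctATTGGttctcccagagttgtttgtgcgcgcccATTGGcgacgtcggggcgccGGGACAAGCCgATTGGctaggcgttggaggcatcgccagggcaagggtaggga
Pdpr: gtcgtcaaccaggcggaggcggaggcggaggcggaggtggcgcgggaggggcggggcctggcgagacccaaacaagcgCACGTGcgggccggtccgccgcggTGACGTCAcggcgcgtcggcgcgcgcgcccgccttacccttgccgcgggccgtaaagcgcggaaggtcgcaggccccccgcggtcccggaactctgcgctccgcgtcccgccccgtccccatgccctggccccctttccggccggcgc
Glul: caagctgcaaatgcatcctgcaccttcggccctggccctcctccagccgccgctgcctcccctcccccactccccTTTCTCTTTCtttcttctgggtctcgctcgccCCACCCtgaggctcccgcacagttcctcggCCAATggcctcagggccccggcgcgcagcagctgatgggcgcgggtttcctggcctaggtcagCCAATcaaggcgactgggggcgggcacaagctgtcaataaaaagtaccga
Nedd4: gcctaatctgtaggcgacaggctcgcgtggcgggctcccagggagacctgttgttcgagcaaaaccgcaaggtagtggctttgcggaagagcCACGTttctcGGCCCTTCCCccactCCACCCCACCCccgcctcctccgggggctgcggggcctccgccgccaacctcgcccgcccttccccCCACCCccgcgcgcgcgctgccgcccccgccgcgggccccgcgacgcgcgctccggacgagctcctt
In these windows Pdk2 and Pdpr each held 1 E-box (CACGTG), starting 126 and 172 bases before the start. Pdpr also held the cyclic AMP response element (TGACGTCA), and Pdk2 held the loose NF-kB pattern and 3 CCAAT boxes on the minus strand (ATTGG). Glul had 2 CCAAT boxes, 1 CCACCC box of the KLF kind and 1 core of the interferon-stimulated response element on the minus strand. Nedd4 had 3 CCACCC boxes, of which a pair overlaps, 1 NF-kB pattern and 1 ACGTG hypoxia element, both on the minus strand.

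Promoters were matched for 49 of the 67 genes and searched on both strands. The E-box was in 12.2% of them and in 8.59% of the promoters of 7753 eligible genes, and ACGTG, which lies inside the E-box on both strands, in 22.4% and 22.5%. CCACCC was in 42.9% and 33%, CCAAT in 32.7% and 35.7%, and the NF-kB pattern in 14.3% and 22.4%. The ETS core CCGGAAGT was in 8.16% and 6.77%, the NRF1 pattern in 6.12% and 9.24%, and the interferon element in 4.08% and 2.71%. TGACGTCA was in 2.04% and 2.76%. No match was found for AP-1 (TGANTCA, 4.08% of eligible promoters), PU.1 (GAGGAAGT, 2.76%) or the sterol element (TCACNCCAC, 0.89%). These are letter matches and not measured binding sites.

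In the signalling group, 8 genes handled cyclic AMP, calcium or their kinases. Ramp1, the partner that turns the calcitonin receptor-like protein into a receptor for the neuropeptide CGRP, had 44.2, 73.1 and 42.4 CPM in Healthy, 30, 33.5 and 27.3 in PanIN, with 33.2, 31.7 and 29.6 in Tumor. Healthy 2 was the highest, Healthy 1 and 3 were alike, and PanIN and Tumor lay together at 30.3 ± 3.11 and 31.5 ± 1.79 CPM (SD, n = 3 each). Calcrl, the receptor chain itself, had a ratio of 1.33 with overlapping libraries. Ramp3, which turns the same chain into a receptor for adrenomedullin, had 0.293.

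Adcy9, an adenylyl cyclase that makes cyclic AMP, had 17.8, 11.3 and 27.4 CPM in Healthy, 6.97, 11.2 and 7.63 in PanIN, with 5.7, 4.63 and 5.68 in Tumor. Its ratio was 2.7, yet Healthy 2 and PanIN 2 nearly touched. Prkacb, a catalytic subunit of protein kinase A, the kinase that cyclic AMP activates, had 103, 98.6 and 147 CPM in Healthy, 81.8, 90 and 81.7 in PanIN, with 61.5, 71.2 and 58.2 in Tumor. All 6 subunit genes of protein kinase A had a ratio above 1, from 1.08 to 2.85, and only in Prkacb did the Healthy libraries clear the 6.

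Prkcb, a protein kinase C that responds to calcium and diacylglycerol, had 117, 130 and 170 CPM in Healthy, 87.2, 84.2 and 89.8 in PanIN, with 62.7, 84.5 and 78.5 in Tumor. Its lowest Healthy library was 1.3 times the highest of the 6, and PanIN was tight at 87.1 ± 2.76 CPM (SD, n = 3). Of 9 protein kinase C genes, 7 had a ratio above 1 and only Prkcb met the rule. Prkcd, the one with the lowest ratio, was at 0.693.

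Slc8a1, a sodium-calcium exchanger of the plasma membrane, had 31.8, 36.9 and 72.3 CPM in Healthy, 25, 29 and 29.9 in PanIN, with 14.5, 17.9 and 15 in Tumor. Healthy 3 stood apart from the other 8 libraries, and the 3 stages did not overlap. Asph (an aspartyl hydroxylase whose gene also encodes calcium-handling proteins), Ppp1r12b (a subunit of myosin phosphatase) and Camk1 (a calmodulin-dependent kinase) had ratios of 1.85, 1.8 and 1.55.

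The receptors and surface proteins numbered 7. Itm2a, a membrane protein known from lymphocyte activation, had 10.9, 17.5 and 11.4 CPM in Healthy, 7.23, 8.46 and 6.12 in PanIN, with 6.35, 6.13 and 3.1 in Tumor. Healthy 2 was the highest, and the lowest Healthy library was 1.29 times the highest of the 6. Itga1, the collagen-binding integrin alpha 1 chain, had 15.6, 25.3 and 25.3 CPM in Healthy, 10.9, 14.9 and 15.1 in PanIN, with 7.05, 10.1 and 9.35 in Tumor. Here, by CPM, Healthy 1 was only just above PanIN 3, and every Tumor library lay below every PanIN library. With TMM factors PanIN and Tumor overlapped. Itga1 was the only 1 of 16 integrin genes at the CPM floor that met the rule.

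Sorl1, a sorting receptor of endosomes, had 164, 161 and 263 CPM in Healthy, 133, 158 and 113 in PanIN, with 88, 74.7 and 83.5 in Tumor. PanIN 2 nearly reached Healthy 2, while the Tumor libraries lay well below both. Sema6b (a semaphorin), Enpp5 (of the ectonucleotide pyrophosphatase family) and Cpd (carboxypeptidase D) had ratios of 2.34, 2.06 and 1.73, with Healthy 3 the highest in each.

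Csf1r, the receptor for the macrophage growth factors CSF1 and IL-34, sat at the edge of the rule. It had 15.7, 14.4 and 32 CPM in Healthy, 11.5, 12.4 and 11 in PanIN, with 14.3, 6.97 and 10.4 in Tumor, so Healthy 2 and Tumor 1 were nearly equal. Csf1r is also 1 of 16 genes in a list of macrophage and monocyte markers, whose sum was 238 to 281 CPM in Healthy, 177 to 242 in PanIN, with 124 to 178 in Tumor. None of those 16 was at 0 in all libraries. The part of such cells in the Csf1r values was not tested.

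Ubiquitin ligases and their subunits made up 5 of the genes. Nedd4, a HECT-type ligase that marks membrane proteins for endocytosis, had 287, 439 and 323 CPM in Healthy, 216, 261 and 152 in PanIN, with 116, 152 and 189 in Tumor. Its means were 350 ± 79.3, 210 ± 55 and 153 ± 36.4 CPM (SD, n = 3 each). Healthy 2 was the highest library, PanIN 2 the closest of the 6 to Healthy 1, and PanIN and Tumor overlapped. The gene lies on chromosome 9 at 72662346 to 72749852, plus strand, on GRCm38.

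In the Nedd4 ligase family, of 9 genes, Nedd4l, named after its values were seen, also had Healthy above all 6, with a ratio of 1.32, while Wwp2, Smurf1 and Smurf2 had ratios of 0.887, 0.803 and 0.965. Among 6 adaptors and partners of these ligases, 2 had every Healthy library below all 6, and the arrestin-like Arrdc1 and Arrdc2 had the lowest ratios, 0.502 and 0.584. Trim32 had 24.3, 17.9 and 50.1 CPM in Healthy and 10.9 to 15.3 in the 6. Pja1, Rnf227 and Fbxo32, the last a muscle atrophy ligase subunit, had ratios of 1.62, 1.61 and 1.5.

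Transport of metal ions and amino acids gave 4 genes. Trf, transferrin, the iron carrier of plasma, had 123, 163 and 148 CPM in Healthy, 81.2, 108 and 93.2 in PanIN, with 64.5, 71.1 and 57 in Tumor. By CPM the 3 stages formed 3 separate levels, 145 ± 19.9, 94.2 ± 13.6 and 64.2 ± 7.04 CPM (SD, n = 3 each). With TMM factors PanIN and Tumor overlapped. The edgeR log2 fold change of Tumor against PanIN was −0.4 ± 0.25 (SE, unadjusted p = 0.129). The transferrin receptor Tfrc had a ratio of 1.2 with overlapping libraries, and the ferritin genes Fth1 and Ftl1 had 0.969 and 0.672. Slc39a10, a zinc importer, Slc36a4, an amino acid carrier, and Nipal3, of a magnesium transporter family, had ratios of 1.9, 2.02 and 1.51.

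Proteoglycan chains are built from a xylose that Xylt1 attaches to the core protein. Xylt1 had 15.3, 11 and 31.7 CPM in Healthy, 10.5, 10.7 and 8.25 in PanIN, with 5.5, 6.45 and 6.69 in Tumor, and Healthy 2 was barely above PanIN 2. Pxylp1, which removes a phosphate from that xylose, had 8.93, 17.8 and 10.3 CPM in Healthy, 7.93, 7.02 and 6.03 in PanIN, with 5.34, 7.0 and 4.5 in Tumor. The former peaked in Healthy 3 and the latter in Healthy 2. Fam20b, the kinase that adds this phosphate, named after its values were seen, had Healthy above all 6 with a ratio of 1.37, and Ids, a lysosomal sulfatase that breaks such chains down, had a ratio of 1.52.

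Genes of RNA handling, translation and chromatin were the largest role group, with 10 genes and ratios of 1.51 to 2.73. Khdrbs3, an RNA-binding splicing regulator, had 10.3, 9.19 and 24.9 CPM in Healthy, 7.37, 4.91 and 3.83 in PanIN, with 3.57, 6.97 and 5.87 in Tumor. Sall2, a zinc finger transcription factor, had 15.6, 15.3 and 31 CPM in Healthy and 6.08 to 12 in the 6. In both, Healthy 3 was well above the other Healthy libraries. Tarsl2, Alkbh8, Ogfod1, Gnl3l and Tsr2 act on transfer RNA, ribosomes or the nucleolus, Fto demethylates RNA, and Zfp316 and Zfat are zinc finger proteins. Healthy 3 was the highest in each of the 10 except Zfat.

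The remaining named genes had ratios of 1.52 to 2.16. Scamp1, a carrier membrane protein of secretory vesicles, had 24.2, 20 and 55.3 CPM in Healthy and 13.5 to 18.7 in the 6, while Pip4p2 (a phosphoinositide phosphatase), Mesd (a chaperone of lipoprotein receptors) and Ipo11 (a nuclear importin) were flatter, at 1.64, 1.53 and 1.52. Oxr1, Bnip3 and Chchd6, which act in oxidative stress, mitophagy and cristae structure, had 1.74, 1.62 and 1.59. Bnip3 was the only 1 of 31 glycolysis and hypoxia genes that met the rule. Ttc28, Sash1, Patj, Ndrg3, Bhlhb9, Rtl6, Sergef and Tmem143 ranged from 1.6 to 2.04, and Healthy 3 was the highest in all 8.

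A predicted gene had the largest ratio. Gm49450 had 39.9, 32 and 31.2 CPM in Healthy, 0, 19.7 and 16.1 in PanIN and 0 in each Tumor library. It overlaps Tuba1a and Tuba1b on the same strand, and quantification that splits reads between such copies makes its values uncertain. The predicted genes Gm20390 and 5730409E04Rik were the other 2.

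The Healthy libraries did not contribute alike. Healthy 3 was the highest Healthy library in 50 genes (74.6%, against 34.2% of eligible genes), Healthy 2 in 15 (22.4%, against 39.8%) and Healthy 1 in 2 (2.99%, against 26%). Without Healthy 3 the ratio had a median of 1.54, and 27 of the 67 genes fell under 1.5. Taken alone, Healthy 2 stood at a median 1.55 times the 6. With TMM factors Healthy 3 was the highest Healthy library in 36 genes. Healthy 1, PanIN 1 and Tumor 1 share a code in their titles: among them the ratio of Healthy to the others had a median of 1.52 (66 genes with a value), and among the other 6 libraries 1.85.

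Brain cell markers, in lists added after seeing the data, were also highest in Healthy 3. Several of the 67, among them Glul, Sema6b, Prkcb and Slc8a1, are known to be expressed in brain too. The sum of 24 neuronal genes, such as Camk2a and Snap25, was 1570, 544 and 3570 CPM in Healthy, 1150, 654 and 546 in PanIN, with 644, 552 and 556 in Tumor. Astrocyte genes (8, such as Slc1a2) summed to 612, 205 and 1440 CPM in Healthy, 226 to 438 in PanIN, with 205 to 254 in Tumor, and 8 oligodendrocyte genes to 296, 108 and 721, 105 to 226, and 109 to 131. The 7SL RNA gene Rn7s1 took 0.765%, 0.263% and 1.78% of counts in Healthy and 0.268% to 0.559% in the 6, and mitochondrial ribosomal RNA 1.26%, 0.486% and 2.77% in Healthy and 0.457% to 1.03% in the 6. None of these 40 marker genes was at 0 in all libraries, and none met the rule. Healthy 2 was among the lowest libraries for each of the 3 lists. The source of this RNA, and its part in the values of the 67 genes, was not tested.

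**Figure D3:**
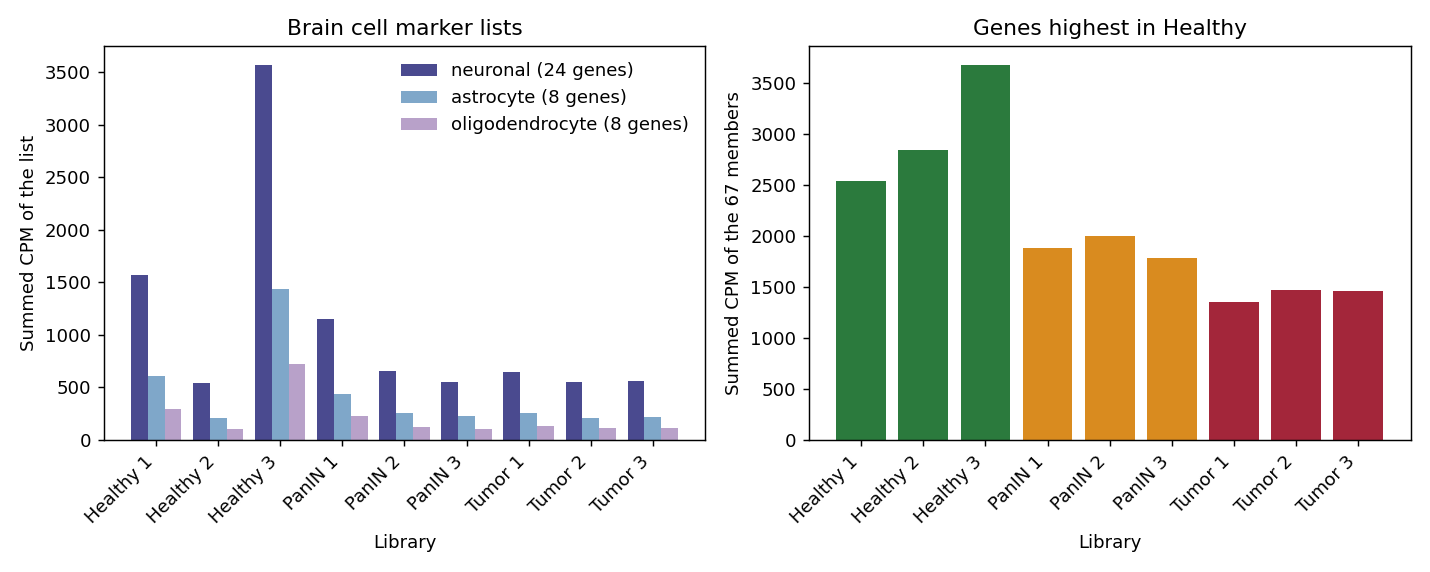
Left, summed CPM of 24 neuronal, 8 astrocyte and 8 oligodendrocyte genes in each library; right, summed CPM of the 67 genes. The brain lists peak in Healthy 3 (3570 CPM for the neuronal list) and are at their lowest or near it in Healthy 2 (544), whereas the 67 genes sum to 2540, 2840 and 3680 CPM in Healthy and to 1350 to 2000 CPM in the 6.

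The 67 genes were recomputed after removal of a term proportional to the neuronal sum, fitted by least squares for each gene together with a level for each stage. The fitted slope was positive for 52 of the 67 (77.6%) against 47.4% of eligible genes. After removal the median ratio was 1.51, 38 genes still had Healthy above all 6, and 25 of them met the full rule. Within stages the neuronal sum varied most in Healthy, at 1570, 544 and 3570 CPM. The slope therefore rests largely on differences between the Healthy libraries, whose values the rule used. Since the genes were chosen on this ratio, its values after removal are a description only.

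The genes differed in how far this removal changed them, and the direction followed the sign of the slope. That sign in large part restates which Healthy library was highest, so no grouping is read from it. In Nedd4, Ramp1, Itm2a, Pxylp1 and Trf the slope was negative and Healthy 2 was the highest. In the other genes named below the slope was positive and Healthy 3 was the highest. For Nedd4 the slope was −28.2 CPM per 1000 CPM of the neuronal sum, and for Ramp1 −8.45. Itm2a went from 2.13 to 2.39, Pxylp1 from 1.96 to 2.27, Nedd4 from 1.93 to 2.1, Ramp1 from 1.72 to 2.02 and Trf from 1.83 to 1.88. Glul went from 2.2 to 1.84, Pdpr from 1.87 to 1.81, Dgat2 from 2.0 to 1.82 and Prkcb from 1.71 to 1.51, each with Healthy still above the 6. Pdk2 went to 1.31, Scamp1 to 1.24, Xylt1 to 1.43, Khdrbs3 to 1.6 and Csf1r to 1.23, and in these 5 the Healthy libraries then overlapped with the 6.

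**Figure D4:**
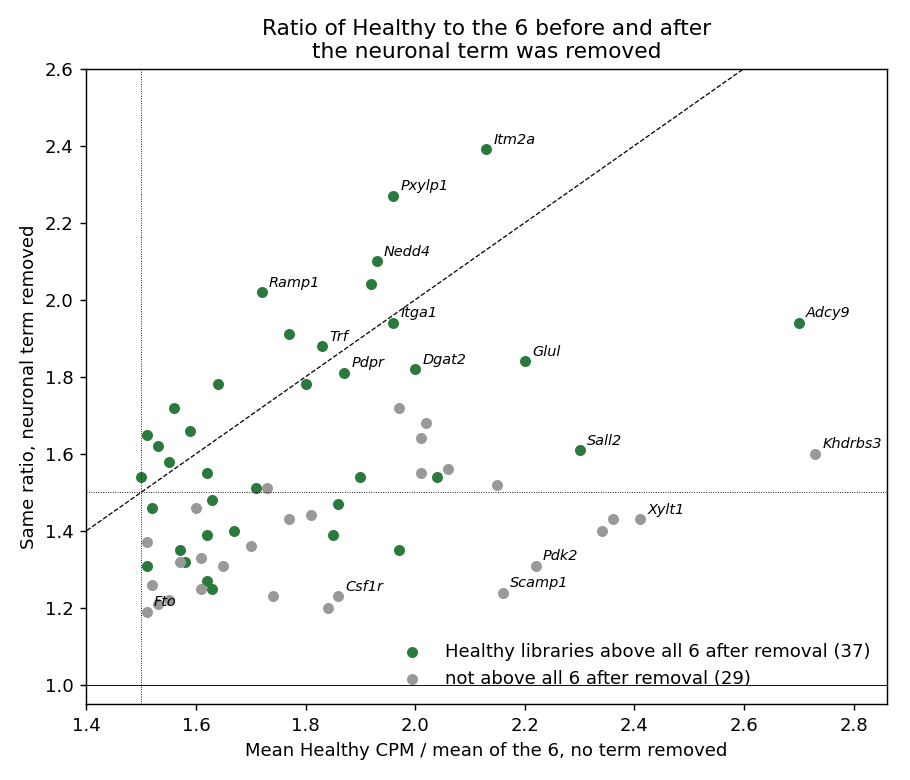
Ratio of the Healthy mean to the mean of the 6 for 66 genes, from CPM with no term removed (horizontal) and with the neuronal term removed (vertical); Gm49450, at 5.75 and 5.94, lies off the axes. Dotted lines mark 1.5 and the dashed line equality; Itm2a, Pxylp1, Nedd4 and Ramp1 lie above it, and Pdk2, Scamp1, Xylt1 and Khdrbs3 far below.

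For Tumor against PanIN, the rule used the values of all 6 libraries but not which of them were PanIN or Tumor. The comparison is therefore not fully independent of the choice of genes. No gene of the 67 was called at an adjusted p under 0.05 by the quasi-likelihood test of edgeR. The p-values were adjusted by Benjamini and Hochberg's method over all 24133 genes, of which 0.0124% were called. The smallest adjusted p among the 67 was 0.799. At an unadjusted p under 0.05, edgeR gave 6 of the 67 as lower in Tumor (2.52% of all tested genes) and 0 as higher. Without PanIN 2 that count was 2. By DESeq2 1 of the 67 was called, Gm49450, which was also called by edgeR without PanIN 1. This is the predicted gene of uncertain values, with 0 CPM in PanIN 1 and in each Tumor library. The share of all genes called in these other fits was not computed, so nothing is read from these calls. The log2 fold change was negative in 51 of the 67 (76.1%, against 53.4% of eligible genes), with a median of −0.21 against −0.03 over eligible genes.

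Those with the smallest p were Pdpr, with a log2 fold change of −1.06 ± 0.27 (SE), Sorl1 with −0.57 ± 0.22, Slc8a1 with −0.68 ± 0.27, Ttc28 with −0.80 ± 0.32 and Sash1 with −0.56 ± 0.25, besides Gm49450. The adjusted p was 1.0 by edgeR for each of the 5. Ttc28 had 9.63, 10.5 and 9.88 CPM in PanIN, with 6.37, 5.54 and 3.51 in Tumor, and Sash1 had 19.7, 22.1 and 16.5 CPM in PanIN, with 9.49, 11.4 and 14.9 in Tumor. On the higher side the smallest p belonged to 5730409E04Rik, Chchd6 (0.22 ± 0.32 SE), Ramp1 (0.20 ± 0.31), Adk (0.16 ± 0.25) and Asph (0.11 ± 0.23), none of which passed either threshold.

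By CPM, every Tumor library lay below every PanIN library in 33 of the 67 genes (49.3%, against 16.8% of eligible genes), and the reverse held in 0 (6.17%). With TMM factors the count was 18 of the 67, against 7.41% of eligible genes. On deposited TPM it was 34, against 21.6%. The Tumor mean was below the PanIN mean in 62 of the 67 by CPM and in 51 with TMM factors. For these means the share of eligible genes was not computed. By the sign of the edgeR fold change it was 53.4%. With 3 libraries against 3, an exact permutation test of a single gene cannot give a p below 0.1.

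**Figure D5:**
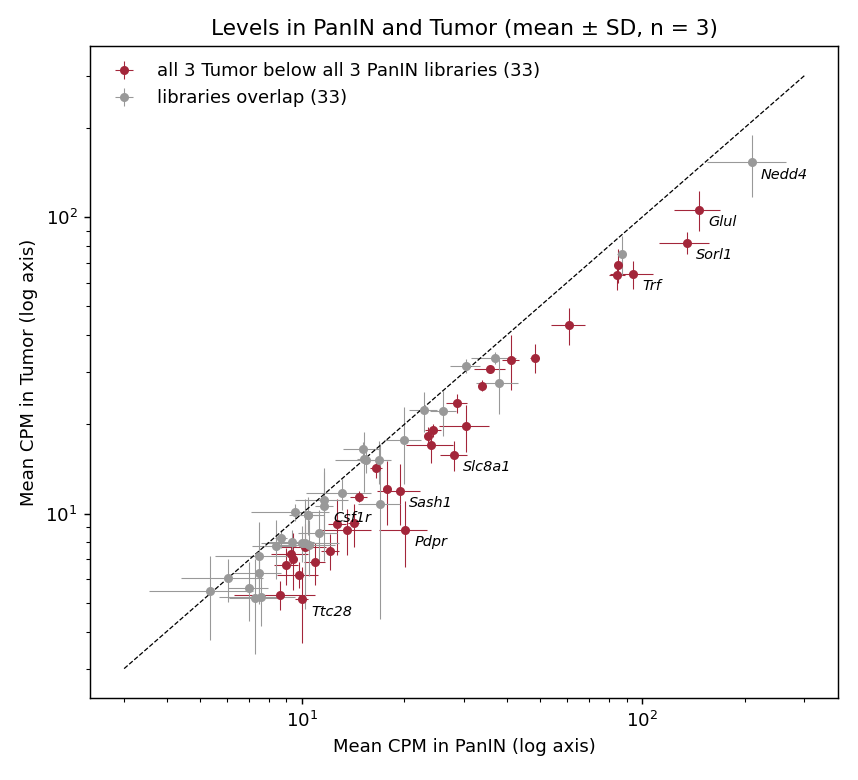
Mean CPM in PanIN (horizontal, log axis) and Tumor (vertical, log axis) for 66 genes, with SD bars of 3 libraries each and a dashed line of equality; Gm49450, at 0 in Tumor, is left out. Most genes lie below the line, 33 of them with all Tumor libraries below all PanIN libraries, and Pdpr, Slc8a1 and Ttc28 are among the farthest from it.

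Structural features of the 67 genes were set beside those of eligible genes. The transcript of each gene with the highest count had a median length of 3560 bases against 3020, 10 exons against 9 and 49.6% GC against 50%, and the genes spanned a median of 39100 bases against 26500. They lay on 18 chromosomes. The X chromosome held 6 of them, Itm2a, Bhlhb9, Gnl3l, Pja1, Tsr2 and Ids (8.96%, against 2.98% of eligible genes). Xist, expressed from the inactive X, ran from 3.78 to 315 CPM across the 9 libraries and the Y-linked Ddx3y from 22.5 to 86.6, and their part in the X-linked values was not tested. Gnl3l and Tsr2 were 69772 bases apart, and the pairs Tmem143 with Sergef and Khdrbs3 with Zfat were also within 1 Mb.

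Genes just inside and just outside the rule were close in value. At the ratio of 1.5, Fbxo32 was inside at 1.5004 and Pde5a outside at 1.4956. At the gap, Csf1r and Fn3krp were inside at 1.0036 and 1.0037, and Nf1 and Rreb1 outside at 0.9992 and 0.9983. At the floor of 8 CPM, Dgat2 was inside at 8.07 and Ehbp1 outside at 7.89.

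On the authors' TPM scale, which is also relative to transcript length, the picture of the same 67 genes was weaker. The Healthy mean was above the mean of the 6 in 64 of them and at least 1.5 times it in 38, but Healthy lay above all 6 in only 8. Protein-coding genes took 42.5% of TPM in Healthy 3 and 53% in Healthy 1, against 59.1% to 65.8% in the other 7 libraries. When TPM was rescaled over protein-coding genes, 61 of the 67 had a ratio of at least 1.5 and 27 had Healthy above all 6.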

How the data were processed

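For each of the 9 libraries the authors deposited, per transcript, an estimated count and a TPM value. The submitters' processing notes name Salmon, with version and settings not given in the sources used here, and mm10. The names of the deposited tables mention sailfish. RNA came from a column micro kit and a directional library kit, per the labels' protocols.

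Of 136288 transcripts, 136176 matched GENCODE M21 (at least 99.963% of counts in each library). Estimated counts were summed to 53458 genes, rounded and divided by the library total for CPM. The test was a single quasi-likelihood fit over the 9 libraries (edgeR 4.0.16, R 4.3.3, TMM factors) on 24133 genes passing filterByExpr (minimum count 10), with a threshold of 0.05; it was tested on simulated data. Levels carry SD over 3 libraries. CPM compare libraries for a gene, not genes of different length. Splitting of reads between similar transcripts makes paralogs and overlapping genes uncertain.

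The genes, lists, roles and tests were chosen with earlier results of these data known. Named genes were the 12 with the widest gap, the 8 with the highest Healthy CPM, the 8 with the largest ratio, members of fixed lists, the 5 smallest p-values each way in Tumor against PanIN, the 3 nearest each threshold on each side, and up to 6 per role, roles being assigned from names. Predicted genes were named where these rules chose them by gap or p, or to account for the 3 of them. The brain, pyruvate dehydrogenase and other family lists, Healthy 2 taken alone and the neuronal term were added after seeing the data. Alternatives covered scaling, thresholds, TPM, libraries left out, DESeq2 1.42.0 and limma 3.58.1. Promoters are from RefSeq on GRCm38.p6. Tables used Python 3.11.15 and pandas 2.3.3, and figures matplotlib 3.10.9. Some genes of the lists are not reported here.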

Additional observations from a re-analysis of the deposited data

How the results depend on the processing

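No paired analysis was possible because the labels carry no replicate numbers and only 1 library of each stage shares a title code. A term for that code in the edgeR fit of Tumor against PanIN left 0 of the 67 called and 6 lower in Tumor at an unadjusted p under 0.05. The number of genes meeting the rule moved with its settings: against 67 it was 105 with RLE size factors (54 shared with the 67), 34 with a floor of 16 CPM, 150 with a looser ratio, 17 with a ratio of 2 and 8 on deposited TPM (3 shared). The floor stayed at 8 on the TPM scale, here and in the mirror count below, though TPM is a different unit. Of the 67 genes, only 8 had Healthy above all 6 on that scale, whatever the floor, and 50 averaged below 8 TPM and so also failed the floor. With the neuronal term removed it was 106 (25 shared), for Healthy 2 alone 602, without Healthy 2 and 3 812, in Healthy 1, PanIN 1 and Tumor 1 alone, which share a title code, 927, and outside that code 203. Leaving out 1 library gave 49 to 1209: 166 without Healthy 1, 1209 without Healthy 2, 118, 106 and 119 without PanIN 1, 2 and 3. The mirror count of 221 was 416 on TPM, 345 with the neuronal term removed, 71 at a ratio of 2 and 396 at the looser one, 754 outside the shared code, 1643 for Healthy 2 alone and 206 to 679 with 1 library left out, the moves past 1.5 times being 679 without Healthy 1 and 356 without Tumor 2.

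The median log2 ratio of the 67 genes was 0.83 and ran from 0.59 with the neuronal term removed to 0.94 without Healthy 1. It was 0.60 within the shared code and 0.89 outside it. On deposited TPM 3 genes had Healthy below the 6, Tmem143 at −0.54, Ogfod1 at −0.02 and Ipo11 at −0.13 (log2). Healthy 3 was the highest Healthy library in 50 genes, in 36 with TMM factors and in 19 with the neuronal term removed.

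In Tumor against PanIN, edgeR called 0 of the 67, and 1, Gm49450, was called with DESeq2 and with no filter on low counts; leaving out 1 library gave 0 to 1, the 1 being without PanIN 1. Genes of the 67 lower in Tumor at an unadjusted p under 0.05 numbered 6 (2.52% of all tested genes) and 2 without PanIN 2. They numbered 19 by limma-voom with sample weights, and 16 and 19 by limma on log2(TPM + 1) and log2(TPM + 0.1). The share of all genes was not computed for these other fits, so nothing is read from their counts. The median log2 fold change of −0.21 was −0.41 and −0.60 on those TPM scales. Over all tested genes the median moved as well, from −0.05 to −0.16 and −0.34. The causes were not tested. Depth was at least 32140409 counts in each library. The parts of counting error and of spread between libraries in the values near 8 CPM were not tested.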
